A study of Mus musculus with 8 samples.

Results

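The semaphorins and their receptors were followed in esophageal epithelial cells of C57BL6 mice aged 14 to 15 weeks. The members were all rows of the count table named Sema3 to Sema7 with a letter, Plxn with a letter and an optional digit, Nrp1 or Nrp2, together with Plxdc1 and Plxdc2. The family was chosen on the measured decrease of Sema3d in Cyto-ID High, among the strongest in these same libraries, so the values of Sema3d are given as a description, with no test, and are left out of every count of changed members. The rule found 33 members among 55276 rows, namely 20 semaphorins, 9 plexins, 2 neuropilins and the 2 Plxdc genes. Of these, 31 passed the filter on low counts, and Sema4f and Sema5b did not.

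Cells were peeled from the esophagus, dissociated and sorted as live (DAPI-negative) and positive for integrin beta-1, a surface protein of basal cells. They were then split by Cyto-ID, a dye of autophagic vesicles, into Cyto-ID Low and Cyto-ID High, and RNA was sequenced in bulk. The labels give no genotype beyond the strain, and their treatment field holds only the Cyto-ID fraction. Both groups came from the same animals, 2 females (Female1, Female2) and 2 males (Male1, Male2), and each animal gave 1 Low and 1 High library. The series asks what sets apart basal cells rich in autophagic vesicles, and here that question was put to the genes of semaphorin signalling.

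Semaphorins are secreted or membrane-bound signalling proteins that were first known as guidance cues of growing axons and that also direct cell movement, adhesion and vessel growth. Plexins are their receptors. The cytoplasmic part of a plexin acts on small GTPases of the Ras and Rap families and, in plexins B, also recruits activators of RhoA, which leads to changes of the actin cytoskeleton and of integrin adhesion. Most secreted class 3 semaphorins need a neuropilin as a binding partner beside a plexin A, whereas class 4 proteins span the membrane and bind plexins B and others directly. In skin keratinocytes, plexins B and class 4 semaphorins are known from wound repair.

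The libraries held 26285150 to 29301054 counts. All 8 markers of basal keratinocytes were lower in Cyto-ID High (median log2 fold change −2.46) and all 8 markers of suprabasal keratinocytes were higher (3.67), while 5 of 5 cycling markers were lower (−2.64). The fractions therefore differed in the balance of basal and suprabasal transcripts, and the part of this in the members' differences was not tested. In bulk RNA, fewer cells of a type and less RNA per cell cannot be told apart. Itgb1, the gate of the sort, had 323 to 390 CPM in Low and 51.8 to 92.2 in High (log2 fold change −2.44, SE 0.21, edgeR adjusted p 2.16e-05), although both fractions were sorted for the protein.

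Across the family, as many members rose as fell in the reported fit, which used TMM scaling. With the animal as a replicate block, also under TMM scaling, 9 rose and 10 fell. When libraries were scaled by total counts alone, 6 rose and 12 fell. Without Sema3d, 30 members were tested, of which 9 rose in Cyto-ID High and 9 fell (edgeR's quasi-likelihood test, p adjusted by Benjamini-Hochberg over all genes tested, threshold 0.05). These 18 were 60% of the members tested, in a comparison that called 48.7% of all 17344 genes tested, 23.4% as higher and 25.3% as lower. In each of the 18, all 4 animals changed in the same direction and the CPM ranges of the 2 fractions did not overlap, which was so for 48.6% of all genes tested. The median log2 fold change of the 30 members was −0.08 and that of all genes tested was −0.09. Since Sema3d was read from the same contrast, nothing is taken from these shares. Levels are given as CPM, counts relative to the library total after TMM scaling (a trimmed mean of gene-wise ratios), and changes as log2 fold changes of High over Low with their standard error (SE).

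**Figure D1:**
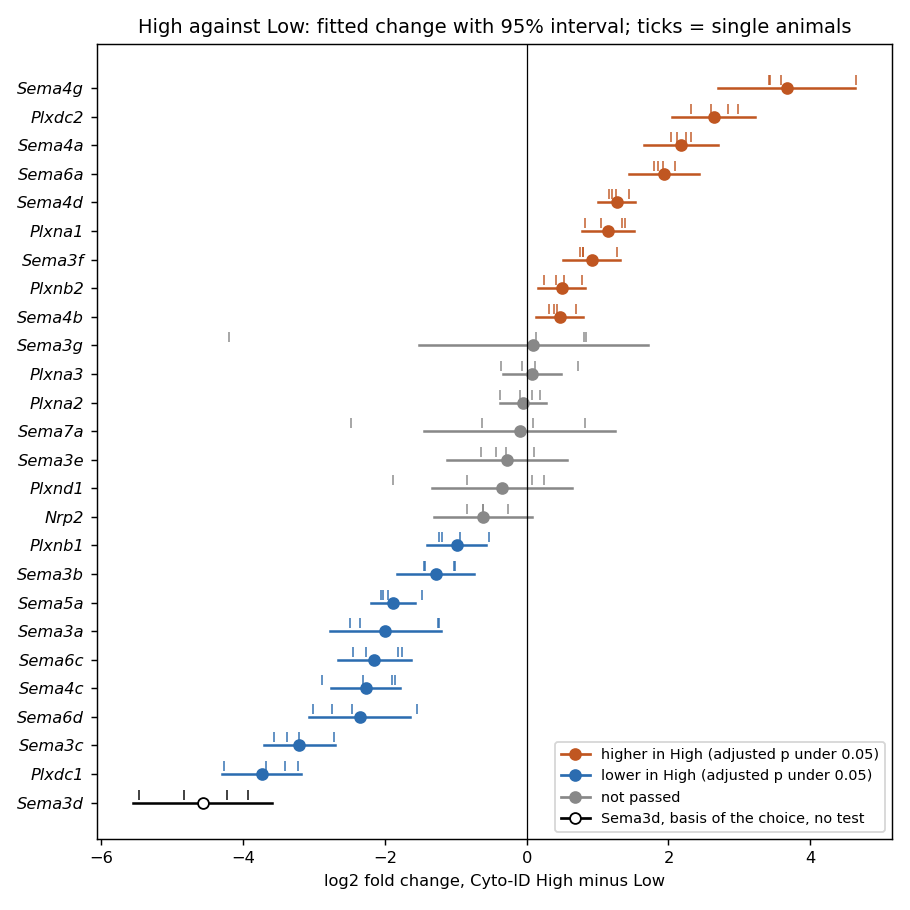
Fitted log2 fold change of Cyto-ID High over Cyto-ID Low (x axis) for the 26 members with a mean of at least 1 CPM, with 95% confidence intervals as lines and the 4 single animals as ticks. Sema4g (3.67) and Plxdc2 (2.64) stand at the top, Sema3c (−3.20), Plxdc1 (−3.73) and the untested Sema3d (−4.57) at the bottom, and the 7 members in grey did not pass the test.

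The class 3 semaphorins, which are secreted, were dominated by opposite changes of abundant members. Sema3c, known from vessel and heart development, had 45.2, 35.6, 46.2 and 43.0 CPM in the Low libraries of Female1, Female2, Male1 and Male2, and 6.83, 3.79, 3.85 and 4.06 CPM in their High libraries. It fell in all 4 animals (log2 fold change −3.20, SE 0.22, adjusted p 1.33e-05), which is 9.21-fold. Sema3f, a ligand of neuropilin-2, went the other way, from 109, 137, 135 and 141 CPM in Low to 184, 237, 233 and 343 CPM in High. It rose by 0.92 (SE 0.18, adjusted p 0.00211), and under scaling by total counts alone its change was 0.33 with an adjusted p of 0.0512. That scaling moved the median log2 fold change of all genes by −0.56, and the share of higher genes among those called went from 48.0% to 20.5%.

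Sema3d, on chromosome 5, is a secreted cue known from vascular and neural crest development. In the Low libraries it stood at 30.8, 71.1, 50.2 and 67.6 CPM and in the High libraries at 1.58, 2.44, 1.07 and 4.37 CPM. The lowest Low library was thus well above the highest High library. The fitted log2 fold change was −4.57 (SE 0.44), and the single animals lay between −5.46 in Male1 and −3.93 in Male2.

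Sema3a and Sema3b were weakly expressed and also fell. Sema3a, a repellent of sensory axons that binds neuropilin-1, had 1.45, 2.50, 1.37 and 2.35 CPM in Low and 0.579, 0.435, 0.534 and 0.360 CPM in High (−1.99, SE 0.35, adjusted p 0.00112). Sema3b had 2.72, 2.97, 2.30 and 2.17 CPM in Low and 0.965, 1.04, 1.11 and 1.03 CPM in High (−1.28, SE 0.24, adjusted p 0.00177). Sema3b and Sema3f are near neighbours on chromosome 9, at 107597674 to 107609229 and 107681500 to 107710475 (GRCm38, GENCODE M21, both on the minus strand), yet 1 fell and the other rose. Sema3a, Sema3c, Sema3d and Sema3e lie on chromosome 5 on the plus strand, from 12383385, where the GENCODE model of Sema3d starts, to 17730268, where that of Sema3c ends.

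Sema3e and Sema3g did not pass the test. Sema3e, a ligand of Plxnd1, had 1.79, 0.962, 1.46 and 1.96 CPM in Low and 1.93, 0.697, 1.18 and 1.23 CPM in High (−0.28, SE 0.38, adjusted p 0.591). Sema3g, described in endothelium, had 1.20, 0.990, 0.777 and 1.21 CPM in Low and 2.20, 1.09 and 1.41 CPM in High Female1, Female2 and Male1, with 0 counts in High Male2 (0.10, SE 0.72, adjusted p 0.930). In both genes the fractions overlapped, and the estimate for Sema3g turned to −0.38 under total-count scaling.

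The promoter sequences of 3 members are shown to let their base composition be compared. They are the 2 largest decreases and the largest increase among members with a mean of at least 5 CPM whose 250 bases before the first RefSeq start touched no exon of GENCODE M21, which 14 members had. RefSeq sequences of build GRCm38.p6 were found for 26 of the 33 members. Each sequence reads 5′ to 3′ on the strand of the gene, with capitals for matches to any of 6 motifs searched on both strands (the TATA box TATAAA, the CCAAT box, the GC box GGGCGG, the CACCC box CCACCC, the AP-1 site TGANTCA and the grainyhead-like factor site AACCNGTT). No matches overlap in these 3 windows.
Sema3d, chr5:12382916-12383165, plus strand: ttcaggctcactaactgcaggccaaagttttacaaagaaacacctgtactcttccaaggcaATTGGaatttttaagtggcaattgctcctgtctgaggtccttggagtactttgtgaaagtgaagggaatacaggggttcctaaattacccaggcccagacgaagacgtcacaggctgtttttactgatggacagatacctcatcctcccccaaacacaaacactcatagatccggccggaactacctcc
Sema6d, chr2:124089719-124089968, plus strand: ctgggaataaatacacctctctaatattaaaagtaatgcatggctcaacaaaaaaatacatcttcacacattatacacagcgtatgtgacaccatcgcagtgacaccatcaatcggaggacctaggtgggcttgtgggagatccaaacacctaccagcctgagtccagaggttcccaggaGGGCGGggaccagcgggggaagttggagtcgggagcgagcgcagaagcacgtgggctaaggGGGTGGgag
Sema4a, chr3:88461183-88461432, minus strand: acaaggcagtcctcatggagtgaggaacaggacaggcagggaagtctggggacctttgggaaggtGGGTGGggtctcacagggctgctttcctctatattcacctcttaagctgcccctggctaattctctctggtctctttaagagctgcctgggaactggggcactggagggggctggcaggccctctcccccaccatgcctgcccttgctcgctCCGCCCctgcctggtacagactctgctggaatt

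The Sema3d window held a single match, CCAAT on the other strand beginning 189 bases before the start, and 46.8% of its bases were G or C with 4 CpG dinucleotides. The Sema6d window had 52.4% G or C and 9 CpG, and that of Sema4a, which is the first of 4 listed starts, 59.6% and 2. The window of Plxnb2, the next largest increase by the same rule, is not printed and was richer, with 69.2% and 20. Among the 26 members with a sequence, the median was 64.6%, against 59.6% over 11257 tested genes with a sequence, and that of Sema3d was the third lowest. GGGCGG occurred in 20 of the 26 members (76.9%) and in 57.2% of those tested genes, and CCACCC in 16 (61.5%) and 33.3%. CCAAT occurred in 3 members, Sema3d, Sema4f and Sema6c (11.5%), and in 36.5% of tested genes. TGANTCA occurred in 2 (7.69%, against 4.85%), while TATAAA and AACCNGTT occurred in 0 of 26 members and in 7.12% and 1.63% of tested genes. Over all 27025 RefSeq genes with a sequence the shares were 13.0% for TATAAA, 34.5% for CCAAT, 32.9% for GGGCGG, 27.7% for CCACCC, 6.87% for TGANTCA and 1.71% for AACCNGTT. A match is a run of letters and no evidence of binding.

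Of the 5 class 4 semaphorins tested, 4 rose and 1 fell, beside 23.4% and 25.3% of all genes tested, and nothing is read from so few genes. Sema4g had the largest increase of the family, from 4.79, 8.50, 2.98 and 11.5 CPM in Low to 52.5, 103, 76.5 and 124 CPM in High. This was 12.7-fold (log2 fold change 3.67, SE 0.43, adjusted p 0.000102), and the lowest High library was above every Low library. Sema4a, a membrane protein known from T cell priming and the retina, had 30.8, 44.4, 30.8 and 47.8 CPM in Low and 135, 182, 146 and 238 CPM in High (2.18, SE 0.23, adjusted p 5.94e-05). Its change was much the same in each animal, between 2.03 and 2.31.

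Sema4d, also called CD100, is the classical ligand of plexin-B1 and plexin-B2. It had 26.4, 26.7, 24.0 and 23.2 CPM in Low and 59.3, 61.6, 57.6 and 63.1 CPM in High (1.27, SE 0.12, adjusted p 2.61e-05), with little spread within either fraction. Sema4b was abundant in both fractions, with 75.0, 80.5, 84.1 and 97.0 CPM in Low and 98.2, 100.3, 114 and 156 CPM in High. Its increase was small (0.46, SE 0.15, adjusted p 0.0252). It was lost without High Male2 (0.34, adjusted p 0.0703) or without Low Male1 (0.39, adjusted p 0.0644), and under total-count scaling the estimate was −0.11 (adjusted p 0.411), against a shift of all genes of −0.56.

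Sema4c was the member of class 4 that fell. It is a ligand of plexin-B2 and had 32.6, 61.2, 30.1 and 31.4 CPM in Low and 8.72, 8.23, 8.31 and 6.28 CPM in High (−2.27, SE 0.22, adjusted p 3.28e-05). The Low library of Female2 stood above the other 3 Low libraries, and every Low library was above every High library. Exons of Sema4c overlap those of D430040D24Rik on the other strand, which had 4 to 107 counts against 122 to 2227 for Sema4c, and whether the counting used the strand is not given in the sources used here.

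Of the 6 tested members of classes 5 to 7, 1 rose and 3 fell, in the comparison that called 48.7% of all genes tested. Sema5a, a membrane protein with thrombospondin repeats, had 44.1, 44.4, 44.2 and 36.1 CPM in Low and 11.3, 10.7, 10.8 and 13.0 CPM in High (−1.88, SE 0.14, adjusted p 1.42e-05). Sema6d, a ligand of plexin-A1, had 13.7, 13.5, 15.0 and 11.8 CPM in Low and 4.63, 1.61, 2.67 and 1.70 CPM in High (−2.36, SE 0.32, adjusted p 0.000213). Sema6c had 4.88, 3.85, 6.59 and 4.89 CPM in Low and 0.965, 1.09, 1.14 and 1.34 CPM in High (−2.15, SE 0.23, adjusted p 5.63e-05). In these 3 genes every Low library was above every High library.

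Sema6a, a ligand of plexin-A2 and plexin-A4, rose where its relatives Sema6c and Sema6d fell. It had 1.98, 1.70, 1.65 and 2.69 CPM in Low and 7.02, 6.66, 7.28 and 9.88 CPM in High (1.94, SE 0.22, adjusted p 8.24e-05). Sema7a is anchored to the membrane by a lipid and binds plexin-C1 and integrin beta-1. It did not pass, with 8.93, 3.60, 2.67 and 3.17 CPM in Low and 9.53, 2.31, 4.77 and 0.514 CPM in High (−0.10, SE 0.60, adjusted p 0.916), and its values spread more within each fraction than between them.

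**Figure D2:**
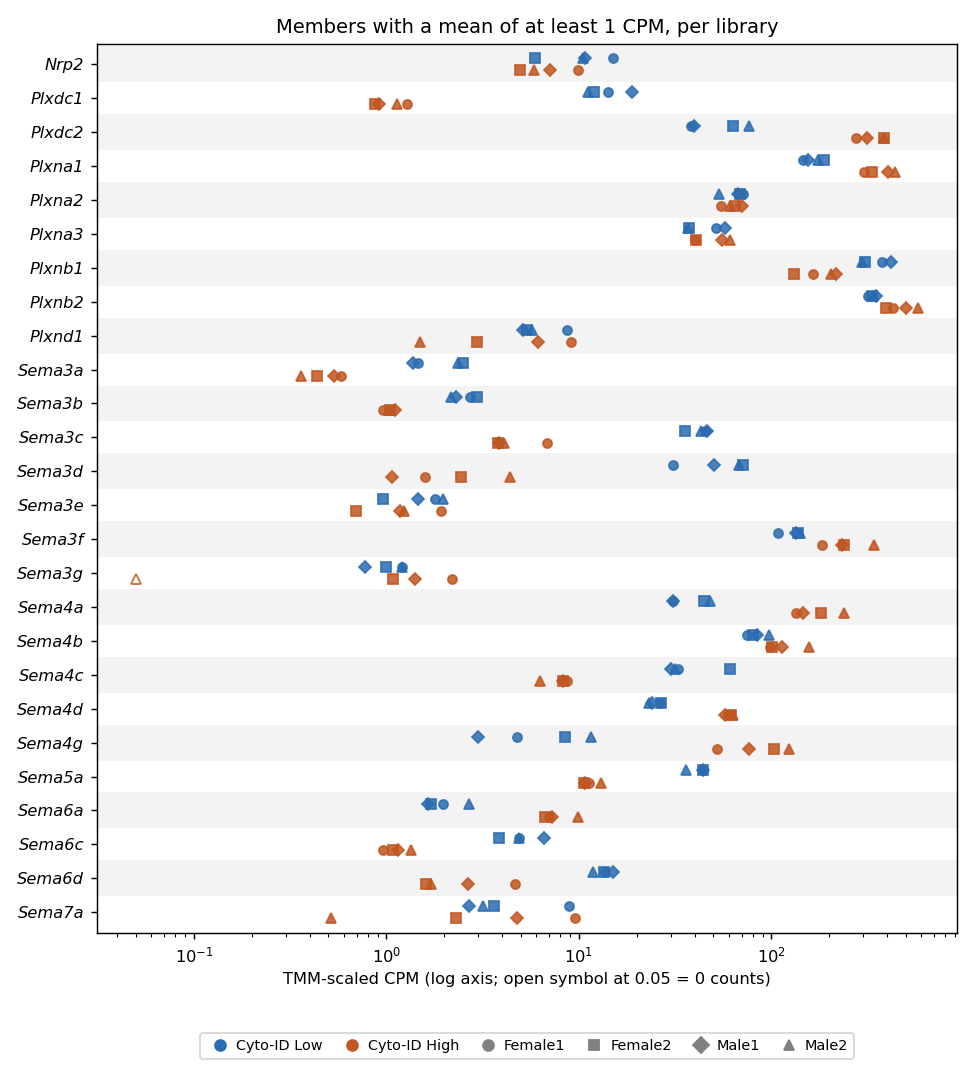
TMM-scaled CPM (log axis) of the 26 members with a mean of at least 1 CPM in each of the 8 libraries, with Cyto-ID Low in blue above Cyto-ID High in orange and 1 symbol shape per animal. The 4 points of each fraction lie apart from those of the other for Sema3d, Sema4g, Plxdc1 and Plxdc2, among others, and are mixed for Plxna2, Plxna3, Sema3e, Sema7a and Plxnd1. The open symbol at 0.05 stands for the 0 counts of Sema3g in High Male2.

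Levels of different genes were compared as CPM per kilobase of exon, over the union of all exons annotated for a gene. Which exons were in use was not examined, so ranks, shares and ratios between genes depend on these lengths. In Low, Sema3f was the highest semaphorin (25.1 ± 2.8, SD, n = 4), followed by Sema4b (14.9 ± 1.7). The next 4, Sema4c (8.46 ± 3.26), Sema4a (7.11 ± 1.66), Sema3d (6.39 ± 2.15) and Sema3c (5.95 ± 0.67), lay within their spread of each other. In High, Sema3f remained first (48.0 ± 12.9), followed by Sema4a (32.4 ± 8.6), Sema4b (20.8 ± 4.8) and Sema4g (10.3 ± 3.6). Sema3d held rank 5 of 20 in Low and rank 11 in High, where its level was 0.275 ± 0.169.

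The make-up of class 3 is given as a description, since the class holds Sema3d, whose fall chose the family. Sema3f held 65.2% ± 0.8 of the summed class 3 level per kilobase in Low and 96.6% ± 1.5 in High (SD, n = 4 each). Sema3d and Sema3c made up 16.3% ± 4.1 and 15.7% ± 3.2 in Low, and 0.53% ± 0.20 and 1.42% ± 0.77 in High. With Sema3d left out of the sum, Sema3f held 78.0% ± 3.2 in Low and 97.1% ± 1.6 in High, and Sema3c 18.7% ± 2.9 and 1.43% ± 0.77. Such shares are taken within a library and do not depend on how libraries are scaled to each other.

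Within class 4, the shares of Sema4b and Sema4c were smaller in High and those of Sema4a and Sema4g larger. Sema4b, the largest share in Low, held 43.6% ± 5.8 of the class there and 28.5% ± 2.9 in High. Sema4c held 24.1% ± 6.4 in Low and 2.48% ± 0.78 in High, Sema4a 20.4% ± 2.4 and 44.1% ± 2.4, and Sema4g 2.24% ± 1.03 and 13.8% ± 2.5. The summed level of class 4 was 34.6 ± 5.0 CPM per kilobase in Low and 73.0 ± 16.3 in High. That of all semaphorins was 79.3 ± 8.0 in Low and 126 ± 28 in High, and neither sum overlapped between the fractions. When libraries were scaled by total counts alone, the sum of class 4 was 42.2 ± 7.5 in Low and 59.0 ± 4.3 in High, still without overlap, but that of all semaphorins was 96.6 ± 12.2 in Low and 102 ± 7.8 in High, and these ranges overlapped. Leaving out Sema3d gave 72.9 ± 5.9 and 126 ± 28 under TMM scaling, without overlap, and 88.8 ± 9.7 and 102 ± 7.7 under total counts, with overlap. The sums of classes 5 and 6, which are less abundant, were lower in High without overlap under both scalings. Class 5 had 2.28 ± 0.22 in Low and 0.628 ± 0.057 in High under TMM, and class 6 had 2.52 ± 0.25 and 1.48 ± 0.19. The class 3 sum overlapped under both, at 38.5 ± 4.5 and 49.5 ± 12.7 under TMM and 46.9 ± 5.8 and 39.9 ± 4.6 under total counts.

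**Figure D3:**
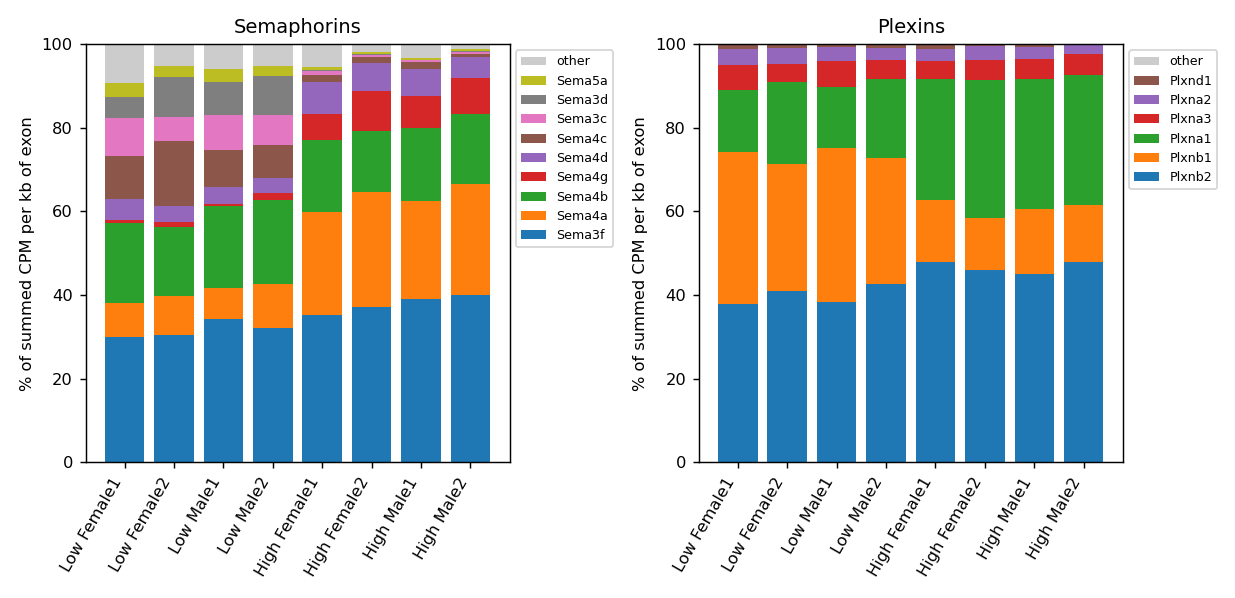
Share of each gene (% of the summed CPM per kilobase of exon, y axis) in the semaphorin level (left) and the plexin level (right) of each library. The bands of Sema3c, Sema3d and Sema4c nearly vanish in the 4 High libraries while Sema4a and Sema4g widen, and among the plexins the band of Plxnb1 narrows and that of Plxna1 widens.

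Among the receptors, Plxnb2, Plxnb1 and Plxna1 were the most abundant plexins in both fractions, and the test placed them in different directions. Plxnb1, the receptor of Sema4d that associates with Met and Erbb2, had 377, 308, 418 and 296 CPM in Low and 165, 131, 217 and 205 CPM in High. It fell 1.98-fold (log2 fold change −0.98, SE 0.18, adjusted p 0.00161). Plxnb2, which binds Sema4c and Sema4d, had 319, 334, 347 and 338 CPM in Low and 426, 395, 502 and 580 CPM in High (0.49, SE 0.15, adjusted p 0.0197). The increase of Plxnb2 was not called without High Male2 (0.42, adjusted p 0.0508), and under total-count scaling its estimate was −0.07 (adjusted p 0.673).

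The ratio of these 2 receptors does not depend on the scaling of libraries. Plxnb2 stood at 1.21 ± 0.20 times the level of Plxnb1 per kilobase in Low and at 3.34 ± 0.38 times in High, and the ranges did not overlap. The summed level of the plexins B was 79.9 ± 6.4 CPM per kilobase in Low and 80.4 ± 14.4 in High, and these ranges did overlap. This sum depends on the scaling. By total counts alone it was 97.1 ± 7.5 in Low and 65.9 ± 11.2 in High, with no overlap. Plxnb1 made up 45.4% ± 4.1 of that sum in Low and 23.2% ± 2.1 in High.

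Plxna1, a receptor for class 3 semaphorins with a neuropilin and for Sema6d, rose. It had 146, 188, 155 and 174 CPM in Low and 301, 333, 405 and 441 CPM in High (1.14, SE 0.16, adjusted p 0.000337). Plxna2 and Plxna3 did not pass. Plxna2 had 70.8, 68.7, 67.3 and 53.5 CPM in Low and 54.6, 64.5, 70.6 and 61.1 CPM in High, with a 95% interval of the log2 fold change from −0.38 to 0.27. Plxna3, on the X chromosome, had 51.4, 37.4, 57.6 and 37.0 CPM in Low and 40.0, 40.7, 55.1 and 61.1 CPM in High, with an interval from −0.33 to 0.49. Both were lower in High under total-count scaling (−0.61, adjusted p 0.00931, and −0.48, adjusted p 0.0430), about as far as the median of all genes moved. In levels per kilobase, Plxna1 made up 65.5% ± 6.0 of the plexins A in Low and 80.4% ± 0.5 in High.

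Plxnd1, the receptor of Sema3e and a plexin of endothelium, had 8.68, 5.36, 5.13 and 5.67 CPM in Low and 9.11, 2.96, 6.10 and 1.49 CPM in High (−0.35, SE 0.44, adjusted p 0.561). The High libraries alone spanned more than the Low libraries, with Female1 highest and Male2 lowest. Nrp2, a neuropilin that binds Sema3f and Vegfc, had 15.1, 5.91, 10.8 and 10.5 CPM in Low and 9.84, 4.92, 7.05 and 5.86 CPM in High. It was lower in High in all 4 animals, although the fractions overlapped, and it did not pass (−0.61, SE 0.31, adjusted p 0.130). It did pass when the animal was fitted as a replicate block (−0.59, adjusted p 0.00792). Nrp1 was under 1 CPM on average, so the abundant Sema3f stood beside little neuropilin RNA, at 0.989 ± 0.330 CPM per kilobase for both neuropilins together in Low and 0.658 ± 0.226 in High.

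Plxdc1 and Plxdc2 are membrane proteins that share a short domain with plexins without being plexins, first described in tumour endothelium and reported as receptors of pigment epithelium-derived factor. They moved in opposite directions. Plxdc1 had 14.2, 11.9, 18.9 and 11.1 CPM in Low and 1.27, 0.871, 0.915 and 1.13 CPM in High, a 13.3-fold decrease (log2 fold change −3.73, SE 0.25, adjusted p 1.27e-05). Plxdc2 had 38.3, 63.3, 39.7 and 76.6 CPM in Low and 274, 385, 313 and 384 CPM in High, a 6.23-fold increase (2.64, SE 0.26, adjusted p 3.86e-05). Per kilobase, Plxdc2 stood at 2.96 ± 1.56 times the level of Plxdc1 in Low and at 233 ± 65 times in High. Serpinf1, which encodes pigment epithelium-derived factor, did not pass (−0.32, adjusted p 0.618).

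The other 7 members had a mean under 1 CPM and 0 to 40 counts in any library. Nrp1, Plxna4, Plxnb3, Plxnc1 and Sema6b were tested and did not pass, and Sema4f and Sema5b were too low to be tested. The SE of the log2 fold change of the 5 tested was 0.47 to 0.71, so small changes in these genes were not detectable.

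The wider pathway was read from 60 genes, of which 59 were tested, with 16 higher (27.1%) and 17 lower (28.8%) in High and a median log2 fold change of 0.02. These shares were near those of all genes tested, 23.4% and 25.3% with a median of −0.09, and the counts of the 4 sub-lists that follow stand against the same background. Of 20 receptor partners and other ligands of the receptors tested, 5 rose and 4 fell. Chl1, an adhesion molecule of the L1 family that joins neuropilins, rose from 79.5 to 134 CPM in Low to 469 to 667 in High (2.47, SE 0.22, adjusted p 2.61e-05). Erbb2, a receptor tyrosine kinase that pairs with plexins B, rose by 1.66 (SE 0.15, adjusted p 2.79e-05). Met, the other such kinase named above and added here after its values were seen, fell from 65.4 to 119 CPM in Low to 14.1 to 34.2 in High, which is 4.01-fold (SE of the log2 fold change 0.28, adjusted p 0.000274). Vegfb, a growth factor that binds neuropilin-1, fell (−2.06, SE 0.22, adjusted p 5.55e-05), as did the gate gene Itgb1 given above.

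Of 18 small GTPases and their regulators, 4 rose and 5 fell. With the animal as a replicate block, 5 rose and 5 fell, the added gene being Arhgef11, an activator of RhoA (0.39, adjusted p 0.05002 without the block, and 0.38, adjusted p 0.0345 with it), which was called in 9 of 19 alternatives and whose estimate under total-count scaling was −0.19. Rhod (2.37, SE 0.20, adjusted p 2.11e-05) and Tiam1, an activator of Rac1 (1.45, SE 0.17, adjusted p 9.4e-05), rose the most. Rras, the GTPase on which plexins act (−1.92, SE 0.15, adjusted p 1.66e-05), and its relative Rras2 (−1.003, SE 0.16, adjusted p 0.000547) fell. All 11 kinases listed were tested, and 5 rose and 4 fell. Fyn, a tyrosine kinase that phosphorylates plexins A, went from 2.30 to 7.82 CPM in Low to 36.3 to 55.0 CPM in High (3.15, SE 0.34, adjusted p 6.29e-05), and Fer rose by 2.25 (SE 0.18, adjusted p 1.71e-05). Rock2, an effector of RhoA, fell by 0.80 (SE 0.19, adjusted p 0.00713), and Pak2 fell by 0.55 (SE 0.15, adjusted p 0.0119).

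Of 10 cytoskeletal effectors, 2 rose and 4 fell. Ssh1, the phosphatase that activates cofilin, fell by 2.24 (SE 0.21, adjusted p 2.74e-05), and Cfl1, which encodes cofilin, fell by 0.63 (SE 0.18, adjusted p 0.0143). Mical2, an oxidase of actin, rose by 0.49 (SE 0.13, adjusted p 0.0104), but under total-count scaling its estimate was −0.08 (adjusted p 0.616), against the shift of all genes of −0.56. Under total-count scaling, the pathway list had 11 genes higher and 22 lower.

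RNA of other cell types was present and its amount varied widely among the High libraries. The 8 endothelial markers summed to 15.7 to 30.3 CPM in Low and to 38.4, 12.1, 23.7 and 2.01 CPM in High Female1, Female2, Male1 and Male2, and 0 of the 8 passed the test. Kdr was the endothelial marker with 0 counts in High Male2. The 8 fibroblast markers summed to 317 to 501 CPM in Low and to 471, 152, 336 and 38.7 CPM in High, with 1 of 8 lower. Muscle markers summed to 28.6 to 50.6 CPM in Low and 4.22 to 40.3 in High (1 of 8 lower), with Actg2 and Ttn at 0 in High Male2. Leukocyte markers summed to 54.7 to 90.0 CPM in Low and 28.5 to 109 in High (2 of 7 tested higher), and Cd3e was at 0 in High Female2 and High Male2. Langerhans cell markers summed to 181 to 228 CPM in Low and 95.3 to 128 in High (3 of 5 lower). Markers of Schwann cells and nerve summed to 152 to 186 CPM in Low and 134 to 183 in High (0 of 5 tested changed). Melanocyte markers summed to 4.69 to 7.23 and 1.39 to 6.44 CPM (1 of 4 lower).

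Several members ranked the High libraries as the endothelial list did, with Female1 highest, then Male1, Female2 and Male2. The order is not particular to that list. The fibroblast, muscle, leukocyte, melanocyte and cycling sums had it too, as did the TMM factors (0.944, 0.896, 0.792 and 0.679) and the number of genes detected (27395, 26623, 24820 and 22208). This comparison was made after the values were seen. The order held in 8 of 31 tested members and in 14.6% of all tested genes. It held in 6 of the 12 members that did not pass, namely Nrp1, Plxnc1, Plxnd1, Sema3g, Sema6b and Sema7a. Its share among all genes that did not pass was not computed, and a wide spread among the High libraries itself works against passing. Nothing is therefore read from 6 of 12 members beside 14.6% of all tested genes. The order also held in Sema3a and Sema4c, which passed. The part of other cell types, or of the libraries' scaling and complexity, in the values of these members was not tested. With both libraries of Male2 left out, 7 members were higher and 9 lower, and the calls lost were Sema4b (0.43, adjusted p 0.0547) and Plxnb2 (0.45, adjusted p 0.0764).

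**Figure D4:**
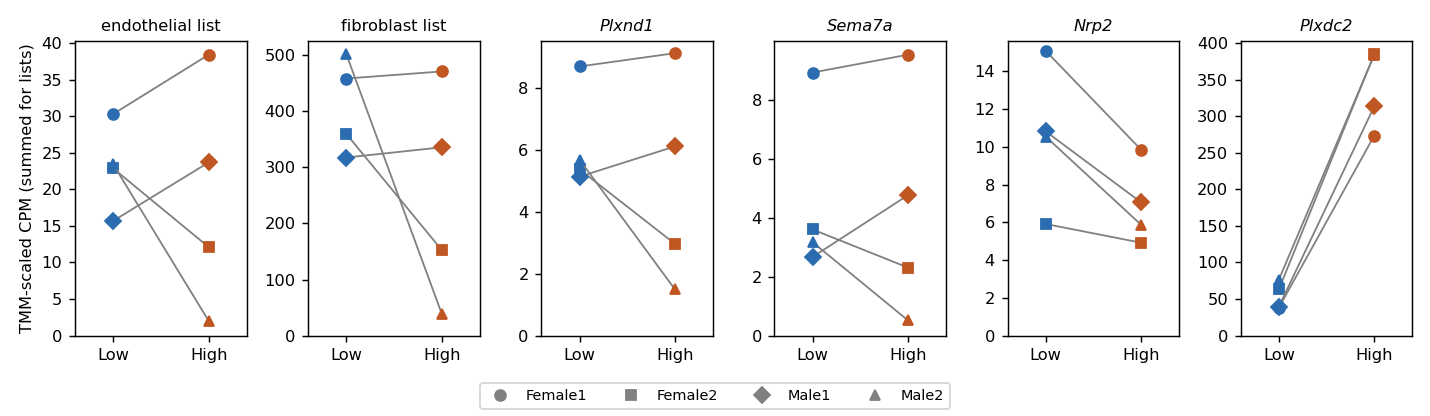
TMM-scaled CPM in Cyto-ID Low and High of each animal, joined by a line, for the summed endothelial and fibroblast lists and for Plxnd1, Sema7a, Nrp2 and Plxdc2. In High, the 2 lists, Plxnd1 and Sema7a run from Female1 at the top to Male2 at the bottom (38.4 to 2.01 CPM for the endothelial list), whereas Plxdc2 rises in all 4 animals.

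Males and females were compared in how the fractions differed, a contrast that the choice of the family did not use. With 2 animals of each sex, 0 of 17344 genes (0%) passed the interaction of sex and fraction by edgeR's quasi-likelihood test, and 19 had an unadjusted p under 0.05. No member was among them. The SE of the interaction ran from 0.25 to 1.54 on the log2 scale over the members with a mean of at least 1 CPM, with a median of 0.49, so the count of 0 does not show that the sexes were alike. The lowest unadjusted p of a member in edgeR's fit was 0.199, for Sema3c, with a male minus female estimate of −0.57 (SE 0.41). The male minus female estimates of the members ran from −1.03 in Sema3g to 0.45 in Plxnb1, apart from Plxnb3 at 1.15, which rested on few counts.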

How the data were processed

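For 8 libraries, the authors deposited raw counts by gene symbol in 1 table, a unit read from whole-number values with unequal totals. Per the submitters' processing notes, STAR 2.7.3, DESeq2 and GRCm38 were used, with no role given. The counting tool, annotation, filters and strandedness are not given in the sources used here.

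The fits used edgeR 4.0.16 under R 4.3.3: filterByExpr, TMM scaling, glmQLFit and glmQLFTest of High against Low over all 8 libraries with sex as a covariate, and Benjamini-Hochberg adjustment over 17344 genes. Tests were two-sided, and the spread covers biological and counting error between animals. SDs are over 4 libraries of a fraction, and single-animal differences use log2 CPM with a prior count of 2. Levels per kilobase use union exon lengths of GENCODE M21, whose exon overlaps were checked. Fits were tested on simulated data.

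Alternatives were RLE factors, total counts only, no filter, at least 10 counts in every library, DESeq2 1.42.0, limma-voom (limma 3.58.1), robust dispersion, omission of the covariate, a replicate block for the animal, and each library left out. Leaving out both libraries of Female2 or Male2, class sums by total counts or without Sema3d, and the alternatives of single pathway genes were chosen after seeing the data.

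Same-named libraries were paired because the names give 1 animal and 1 suspension was sorted into both fractions. This pairing was used in the single-animal differences and in the block alternative. The reported fit had sex but not the animal as a covariate, so its p-values are not paired. Deviations from the fraction means correlated by −0.02 to 0.43 across genes within an animal and by −0.37 to 0.35 between animals.

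The members, the pathway list and the marker lists were chosen with earlier results of these data known. Members with a mean of at least 1 CPM were named with all values. Of each pathway sub-list, the 2 largest rises and falls that passed with a mean of at least 5 CPM were named, Itgb1 counting among them and also named as a gate of the sort. Serpinf1, the reported ligand of the Plxdc proteins, Met and Arhgef11 were named outside this rule.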

Additional observations from a re-analysis of the deposited data

Results flagged for a closer look

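In 5 of 52 sets of 4 libraries (26 members in 2 fractions), 1 library lay far from the other 3 by Dixon's criterion, which chance gives in about 1 of 20 sets. Among the Low libraries, Plxnd1 had 8.68 CPM in Female1 against 5.13 to 5.67 in the others, and Sema7a had 8.93 CPM in Female1 against 2.67 to 3.60. Female1 was also the Low library with the highest endothelial marker sum, 30.3 CPM, but this was not particular to that list. Its muscle, leukocyte, melanocyte and cycling sums (50.6, 90.0, 7.23 and 909 CPM) and its genes detected (28266) were also the highest in Low. The fibroblast, Langerhans cell and Schwann cell sums were highest in Low Male2. The part of these traits in the values of Plxnd1 and Sema7a was not tested. Sema4c had 61.2 CPM in Low Female2 against 30.1 to 32.6, and Sema5a had 36.1 CPM in Low Male2 against 44.1 to 44.4. Sema3c had 6.83 CPM in High Female1 against 3.79 to 4.06.

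Plxna2 passed neither the comparison of the fractions nor the interaction with sex, but its differences had opposite signs in the 2 sexes. The log2 difference of High over Low was −0.37 and −0.09 in the 2 females and 0.07 and 0.19 in the 2 males. The fitted male minus female difference was 0.35 (edgeR's interaction test, unadjusted p 0.265), which did not pass.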

How the results depend on the processing

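Of the 18 members called, 15 were called in the same direction under all alternatives that could be fitted, and Plxnb2, Sema4b and Sema3f did not. The stricter filter removed Sema3a and Sema3g, among others. The counts of called genes ranged from 7269 to 10708 (8440 in the reported fit), those of members from 16 to 19 and those of the pathway list from 26 to 34. The interaction of sex and fraction gave 0 genes in each of 6 alternatives, in a design that is too small for this to show that the sexes were alike. With the animal as a replicate block, 9336 genes were called, 9 members were higher and 10 lower, Nrp2 being added (−0.59), and the block ended no call of a member. In the pathway list the block gave 17 higher and 17 lower, with Arhgef11 added (adjusted p 0.0345). Arhgef11 was also called with RLE factors, DESeq2, the stricter filter, robust dispersion, no covariate, without High Female1, without Low Female2 and without both libraries of Female2. Nrp2 was also called without a filter on low counts, under total counts, without Low Female2 and without both libraries of Female2.

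Directions turned in small or noisy estimates. Under total counts, Plxnb2 was at −0.070, Sema4b at −0.11, Mical2 at −0.077, Arhgef11 at −0.19, Plxna3 at −0.48 and Sema3g at −0.38. Plxna2 was at 0.017 under RLE factors and 0.0087 under DESeq2. Sema3g was at −0.26 under limma-voom and −0.11 under the block. Leaving out 1 library gave −0.13 to 0.036 for Plxna2, −0.057 to 0.19 for Plxna3, −0.48 to 0.55 for Sema3g, −0.77 to 0.24 for Sema7a and −0.76 to 0.0078 for Serpinf1. Without both libraries of Female2, Sema7a was at 0.0087, and without both of Male2 it was at 0.26, Plxna3 at −0.061 and Serpinf1 at 0.22. The cause was not tested. Without a filter on low counts, where 35027 genes were tested, Plxnb2 (0.45, adjusted p 0.109), Sema4b (0.42, adjusted p 0.0933) and Mical2 (0.44, adjusted p 0.0618) were not called, nor was Pak2 without both libraries of Male2 (−0.52, adjusted p 0.0589). The 7 members under 1 CPM had 0 to 40 counts in any library, so small changes in them were not detectable.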
